A study of Mus musculus with 36 samples.

Results

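The genes described here are those of fatty acid oxidation and ketone body metabolism, listed by gene symbol; the rule takes every probe set that carries such a symbol alone and uses no measured value itself. Of 29 listed genes, 27 were carried by a probe set as its only symbol, among 18193 such symbols on the array, and they were measured by 50 of 45037 probe sets. The remaining members, Acsl1 and Cpt1b, were not analysed here. Where a gene had several probe sets, the probe set with the highest mean over all 36 arrays represented it, and this applied to 15 genes.

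Arrays of liver, white fat (WAT) and brown fat (BAT) came from 12 male mice of ddY, an outbred stock, which were 5 weeks old when obtained and were then acclimated for 1 week. The 7 control mice received water (labelled DW) by feeding tube and the 5 CAAM mice a 1.8% mixture of amino acids in the proportions of casein, both at 37.5 μL per g of body weight on each of 5 days. Food was withdrawn 2 h before the final dose and tissues were taken 4 h after it, so all mice had been without food for some hours. The CAAM group had lost 2 further mice, which the study left out for abnormal liver morphology, and the labels do not say which fat depots were taken.

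In mitochondrial beta-oxidation, a fatty acid is activated to its acyl-CoA, crosses into the matrix as a carnitine ester, and is shortened in rounds of dehydrogenation, hydration, a further dehydrogenation and thiolysis. The electrons pass through the electron transfer flavoprotein to the respiratory chain, and the acetyl-CoA enters the citric acid cycle or, in the liver, is turned into ketone bodies for export. Brown fat burns fatty acids for heat, white fat stores and releases them, and the liver makes ketone bodies but is known for lacking the enzyme that uses them.

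The DNA before the starts of 7 members, in 6 windows, is shown because these genes stand for the tissue patterns described next: the trifunctional protein genes Hadha and Hadhb with Acadm and Acadvl (highest in BAT), Cpt1a and Bdh1 (highest in liver) and Oxct1 (lowest in liver). Sequences are the 250 bases before a start of transcription in RefSeq (GRCm38.p6), written in the direction of the gene. The start used for Cpt1a lies inside the span of the gene, which begins at position 3322326 of chromosome 19. Capitals mark AGGTCA, the core motif of many nuclear receptors, and GGGCGG, a GC box, in either orientation (TGACCT and CCGCCC on the strand shown).
Hadhb, chr5:30155003-30155252, plus strand: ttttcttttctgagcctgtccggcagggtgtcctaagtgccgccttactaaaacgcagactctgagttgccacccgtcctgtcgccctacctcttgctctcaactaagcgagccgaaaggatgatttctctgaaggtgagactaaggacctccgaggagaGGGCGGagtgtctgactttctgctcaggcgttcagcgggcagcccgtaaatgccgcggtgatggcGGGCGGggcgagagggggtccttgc
Acadm, chr3:153944644-153944893, minus strand: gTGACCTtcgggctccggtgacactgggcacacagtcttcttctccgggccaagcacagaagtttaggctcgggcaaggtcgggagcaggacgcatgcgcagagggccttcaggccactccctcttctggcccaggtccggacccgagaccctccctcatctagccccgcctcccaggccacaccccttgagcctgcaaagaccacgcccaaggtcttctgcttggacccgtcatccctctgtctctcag
Acadvl, chr11:70015429-70015678, minus strand: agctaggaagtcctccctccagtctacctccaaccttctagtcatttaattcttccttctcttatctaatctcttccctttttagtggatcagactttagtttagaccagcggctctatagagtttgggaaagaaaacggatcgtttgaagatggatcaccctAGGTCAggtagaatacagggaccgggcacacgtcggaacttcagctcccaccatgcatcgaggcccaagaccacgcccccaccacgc
Cpt1a, chr19:3323051-3323300, plus strand: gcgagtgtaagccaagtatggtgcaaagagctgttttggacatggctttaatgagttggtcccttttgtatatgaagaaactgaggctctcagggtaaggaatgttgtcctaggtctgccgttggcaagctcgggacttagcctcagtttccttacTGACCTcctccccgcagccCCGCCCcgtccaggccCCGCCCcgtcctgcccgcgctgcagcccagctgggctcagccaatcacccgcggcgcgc
Bdh1, chr16:31422047-31422296, plus strand: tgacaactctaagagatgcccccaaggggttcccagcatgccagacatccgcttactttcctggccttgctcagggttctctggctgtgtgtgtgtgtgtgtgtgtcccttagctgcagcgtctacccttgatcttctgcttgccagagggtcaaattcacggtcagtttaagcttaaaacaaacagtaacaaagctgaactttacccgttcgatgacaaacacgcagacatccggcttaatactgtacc
Oxct1, chr15:4026178-4026427, plus strand: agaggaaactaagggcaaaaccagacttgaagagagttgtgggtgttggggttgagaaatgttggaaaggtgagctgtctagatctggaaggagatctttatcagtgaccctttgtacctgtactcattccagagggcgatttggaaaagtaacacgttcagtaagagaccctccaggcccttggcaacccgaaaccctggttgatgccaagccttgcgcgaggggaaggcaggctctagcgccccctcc
The window of Hadhb lay wholly between the starts of Hadha and Hadhb, which are divided by 272 bases and point away from each other, so it is also the region before Hadha. RefSeq windows were found for 23 of the 29 listed genes, 25 windows in all. On either strand, GGGCGG occurred in 14 of the 25 windows and in 32.7% of all 32851 windows of this length, and AGGTCA in 4 (Acadm, Acadvl, Cpt1a and Cpt1c) and in 14% of all. Neither the extended motif TCAAGGTCA nor the repeat AGGTCANAGGTCA, both of which contain AGGTCA, was found in a member's window, and they occurred in 0.387% and 0.0335% of all windows. These are matches of letters only.

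The deposited values were distribution free weighted (DFW) scores, 1 per probe set and array. Their level mostly resembles log2 intensity, although the highest score was 23 in WAT, 16.4 in BAT and 15.3 in liver. For most probe sets, deviations between arrays of a tissue are shrunk by a factor that belongs to the probe set. Differences are therefore not fold changes and are given in score units. The SD over the 7 DW mice had a median over the 27 members of 2.58e-05 in liver, and of 7.67e-05 and 4.63e-06 in WAT and BAT. Hepatocyte markers averaged 14.5 in liver, 6.72 in WAT and 6.53 in BAT (4 of 5 measured), white adipocyte markers 13.2 in WAT and 10.2 in BAT (3 of 5), and brown adipocyte markers 11.5 in BAT and 6.94 in WAT (5 of 5), each highest in the tissue of its label. Markers of other tissues stood out in some fat arrays: the summed score of 10 skeletal muscle markers in BAT ran from 68.8 to 108 in DW and from 66.4 to 104 in CAAM mice, and that of 5 epididymis markers in WAT from 36.3 to 58.2 and from 31.9 to 47.4. By rank products for CAAM against DW, all 10 muscle markers were called lower in BAT, 4 of 6 macrophage markers were called higher in liver and 4 lower in BAT, and all 3 mesothelium markers were called lower in WAT. Of the epididymis markers in WAT, Lcn8 and Lcn9 were called lower, Spint4 and Serpina1f higher and Lcn5 in both directions. Every DW mouse stood above every CAAM mouse in Lcn8 (9.32 to 19.8 against 6.36 to 6.71) and Lcn9 (8.22 to 17.2 against 6.4 to 6.74). Among the adipocyte markers, rank products called Retn and Ppargc1a higher and Lep and Dio2 lower in BAT, and Cidea lower in WAT. It also called the hepatocyte marker Fgb higher in liver and the muscle marker Acta1 higher in WAT. limma called none of these markers. Their part in the CAAM differences of the members was not tested.

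In DW mice, most genes of the mitochondrial pathway were highest in BAT and lowest in WAT. Of the 27 genes, 20 had their highest mean score in BAT, 6 in liver and 1 in WAT, whereas 21.6% of all probe sets were highest in BAT, 34.9% in liver and 43.5% in WAT. WAT was the lowest tissue for 21 genes, and 17 shared the order BAT, liver, WAT. Some of these ranks rest on very small gaps. Liver exceeded WAT by 0.00263 for Decr1, and BAT exceeded WAT by 0.00589 for Oxct1 and liver by 0.0861 for Acat1. In every comparison of a pair of tissues all 27 genes had an adjusted p of 4.58e-17 or less by limma, but so small an SD let 99.8% of all probe sets pass between BAT and WAT and between liver and WAT, and 99.9% between liver and BAT. A gene is therefore called different here only where the difference was also at least 1 score unit. The scores appear to have been computed separately for each tissue, since 74.4 to 82.7% of the probe sets that differed by 1 or more had an SD under 0.001 within both tissues, and an offset between such runs cannot be told apart from a difference between tissues. Fewer cells of a type and less RNA per cell cannot be told apart either.

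**Figure D1:**
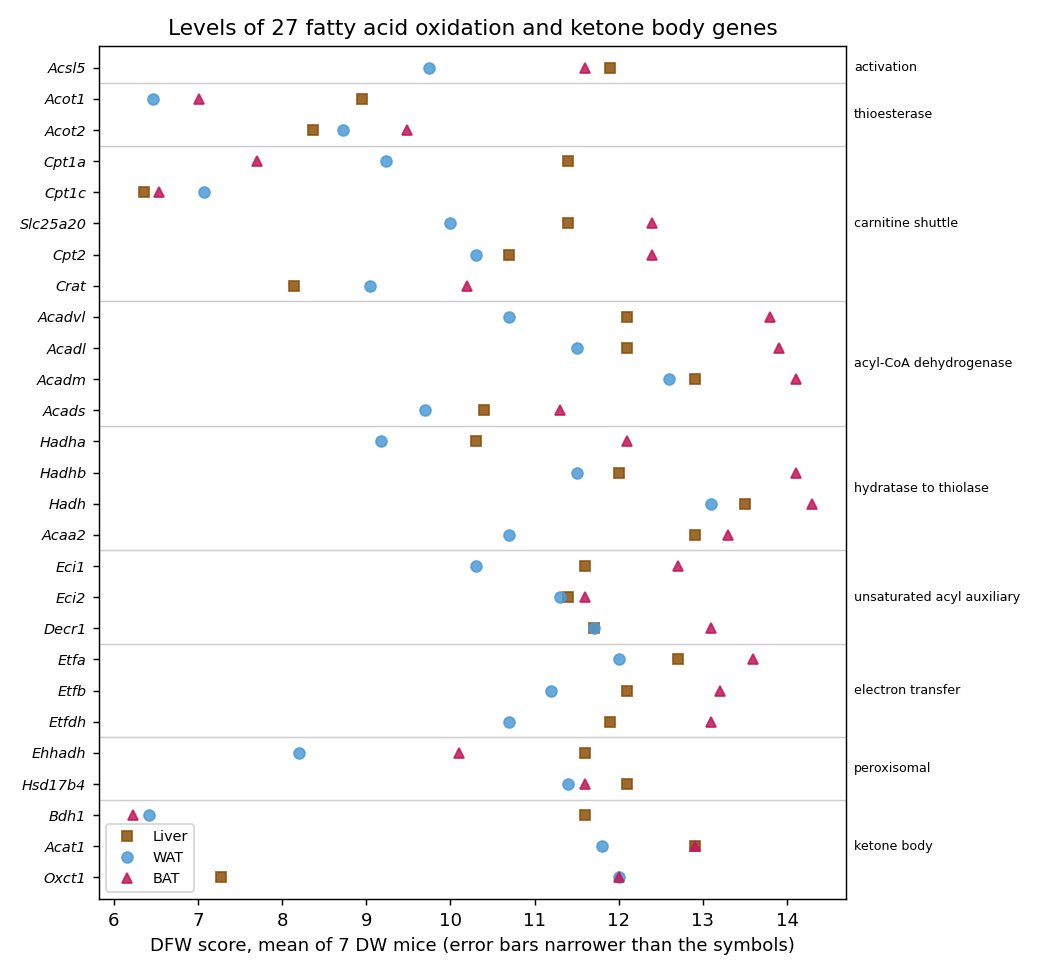
Mean DFW score (x axis, score units) of 27 genes in liver (squares), WAT (circles) and BAT (triangles) of 7 DW mice, grouped by role; rows are read across tissues, not against each other. BAT lies to the right for 20 genes and WAT to the left for 21, while Bdh1 and Cpt1a are highest in liver and Oxct1 is far lower in liver than in either fat.

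BAT scored higher than WAT by at least 1 unit in 19 genes, against 1.77% of all probe sets, and lower in 1 gene, against 4.9%. The median difference over the members was 1.54, beside -0.0935 over all probe sets. The dehydrogenases that open each round for very long, long, medium and short chains all scored higher in BAT. Acadvl scored 13.8 in BAT, 10.7 in WAT and 12.1 in liver, and its difference between BAT and WAT of 3.05 (SE 3.19e-05; adjusted p 4.53e-56 by limma) was the highest of the 27. For Acadl the scores were 13.9, 11.5 and 12.1 and the difference 2.43, for Acadm 14.1, 12.6 and 12.9 and 1.51, and for Acads 11.3, 9.7 and 10.4 and 1.56. These levels did not overlap between tissues, since no member's SD over the DW mice was above 0.0228 in any tissue.

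The enzymes that complete the round followed the same order. Hadha, the alpha subunit of the trifunctional protein, which hydrates and oxidises long-chain intermediates, had a score of 12.1 in BAT, with 10.3 in liver and 9.17 in WAT. Hadhb, the beta subunit with the thiolase, scored 14.1, 12 and 11.5. The differences between BAT and WAT were 2.9 for Hadha and 2.55 for Hadhb, the genes that share the region printed above. Hadh, the dehydrogenase for shorter chains, differed by 1.19, and Acaa2, the thiolase for medium chains, by 2.59 (13.3 in BAT and 10.7 in WAT). Of the auxiliary enzymes for unsaturated chains, Eci1 differed by 2.44 and Decr1 by 1.4, whereas Eci2 differed by 0.294. Etfa and Etfb, the subunits of the electron transfer flavoprotein, and Etfdh, which passes its electrons to ubiquinone, differed by 1.54, 1.98 and 2.36.

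Within the carnitine shuttle the tissue order depended on the gene. Cpt1a, the outer membrane transferase that commits the acyl group to entry and the isoform of liver, scored 11.4 in liver, 9.23 in WAT and 7.7 in BAT. It was the only member called lower in BAT than in WAT, by 1.54 (BAT minus WAT -1.54, SE 0.000147; adjusted p 1.07e-44 by limma), and liver exceeded BAT by 3.72. The muscle and brown fat isoform Cpt1b was not analysed here. Slc25a20, which exchanges acylcarnitine for carnitine across the inner membrane, and Cpt2, which re-forms acyl-CoA in the matrix, instead exceeded WAT in BAT by 2.39 and 2.1. Crat, which works on short chains, scored 10.2 in BAT, 9.05 in WAT and 8.14 in liver. Cpt1c, an isoform known from neurons, was the only member highest in WAT, at 7.07 against 6.54 in BAT and 6.36 in liver. Both gaps were under 1 unit. The median over all probe sets was 6.92 in WAT, 6.78 in BAT and 6.81 in liver, so Cpt1c scored near or below it throughout. WAT was the highest tissue for 43.5% of all probe sets.

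Liver scored higher than WAT by at least 1 unit in 12 genes (3.96% of all probe sets) and lower in 1 (8.34%), and higher than BAT in 4 (5.02%) and lower in 14 (4.6%). The median member difference was 0.721 between liver and WAT and -1.03 between liver and BAT, beside -0.0513 and 0.0195 over all probe sets. The 4 genes higher in liver than in BAT were Bdh1, Cpt1a, Acot1 and Ehhadh. Acot1, a cytosolic thioesterase that releases the free fatty acid from its CoA ester, scored 8.95 in liver, 7.01 in BAT and 6.47 in WAT. Its WAT score lay below the median over all probe sets in WAT, 6.92. Ehhadh, the bifunctional enzyme of peroxisomal beta-oxidation, scored 11.6 in liver, 10.1 in BAT and 8.2 in WAT. Hsd17b4, the other peroxisomal bifunctional enzyme, was also highest in liver (12.1, against 11.6 in BAT and 11.4 in WAT), but by less than 1 unit. Acsl5, which activates long-chain fatty acids, scored 11.9 in liver and 11.6 in BAT, a gap of 0.247, and 9.74 in WAT. Acot2, the mitochondrial relative of Acot1, scored 9.49 in BAT, 8.72 in WAT and 8.37 in liver.

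The widest gaps between tissues belonged to a pair of ketone body enzymes, in opposite directions. Bdh1, which interconverts acetoacetate and 3-hydroxybutyrate, scored 11.6 in liver, 6.42 in WAT and 6.23 in BAT. Its scores in the fats lay below the medians over all probe sets, 6.92 in WAT and 6.78 in BAT. Liver exceeded WAT by 5.2 (SE 0.000196; adjusted p 1.08e-49) and BAT by 5.39 (SE 0.000138; adjusted p 4.28e-52 by limma). Oxct1, the CoA transferase by which tissues other than liver use ketone bodies, scored 7.27 in liver and 12 in both fats. It was 4.75 lower in liver than in WAT (liver minus WAT -4.75, SE 9.65e-05; adjusted p 7.36e-53), and BAT and WAT differed by 0.00589. Acat1, the thiolase that serves both making and using ketone bodies, scored 12.9 in BAT and in liver, with a gap of 0.0861, and 11.8 in WAT.

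**Figure D2:**
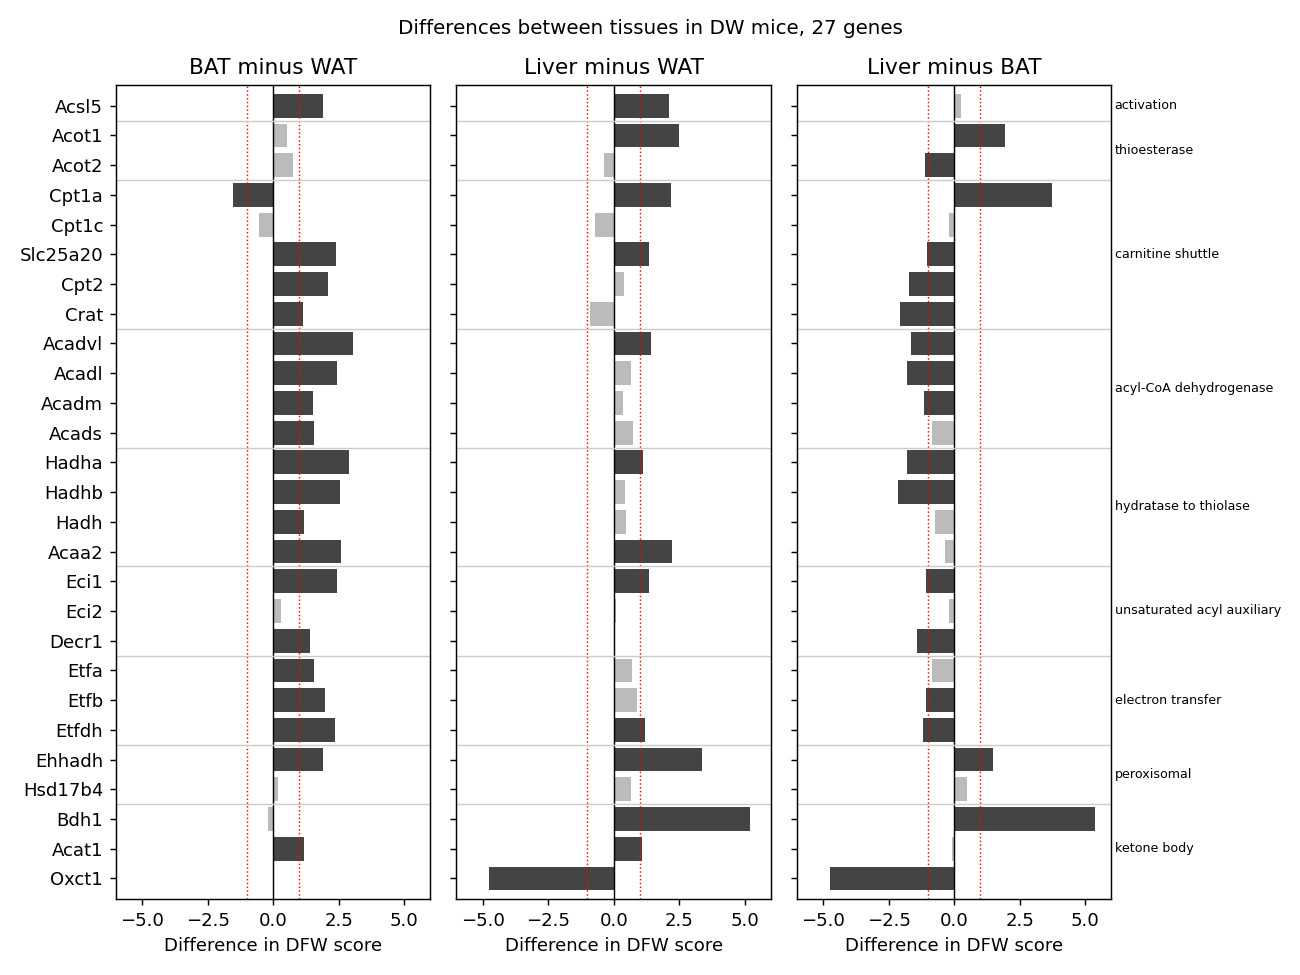
Differences in mean DFW score between tissues in 7 DW mice (x axes, score units) for 27 genes; dark bars reach 1 unit in size (dotted lines) and grey bars do not. By at least 1 unit, BAT exceeds WAT in 19 genes, liver exceeds WAT in 12 and liver is below BAT in 14, with Bdh1 at 5.2 and 5.39 and Oxct1 at -4.75 in both liver comparisons.

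In CAAM mice the same genes were called, 20 between BAT and WAT, 13 between liver and WAT and 18 between liver and BAT. Probe sets of a gene did not always share a tissue order: of the 23 probe sets not used as representatives, 16 had the same highest tissue as the representative and 7 another. For Oxct1 the other 3 probe sets were highest in WAT, at 11, 11 and 9.64 against 10.8, 9.6 and 8.32 in BAT, and all 4 were lowest in liver. For Hsd17b4 the second probe set scored 11.7 in WAT and 9.95 in liver, the reverse of the representative. Single probe sets of Cpt1a, Cpt2 and Hadh also had their highest score in WAT. Several of these carry the suffix _x_at, which marks probes that may bind other transcripts, as do the representatives of Crat and Hadh. With the mean of all its probe sets, Hadh differed by -0.0418 between liver and WAT, and several differences were below 1 unit: Cpt2 and Hadh between BAT and WAT (0.525 and 0.516), Cpt1a, Etfdh and Acat1 between liver and WAT (0.734, 0.705 and 0.795), and Cpt2 and Etfdh between liver and BAT (-0.517 and -0.586).

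CAAM was compared with DW within each tissue by rank products, the test the study used, and by limma. Few members differed. By rank products 1 of the 27 genes was called higher and 0 lower in liver (1.62% and 1.18% of all probe sets), 0 in either direction in WAT (0.793% and 1.98%), and 0 higher and 1 lower in BAT (1.19% and 2.05%). The called gene was Acot1 in both tissues, and shares this near the background say nothing particular about the members. On data simulated with the spread of these arrays, rank products called 1266 (liver), 1381 (WAT) and 1288 (BAT) of 44837 unchanged probe sets. On the arrays themselves it called 1202, 1183 and 1426 probe sets. Simulated probe sets varied independently of each other, which those of a real mouse need not, and the source of the calls was not tested. limma called no member and no probe set in any tissue at an adjusted p under 0.05, with 3047, 1784 and 2886 probe sets at an unadjusted p under 0.05 (6.77%, 3.96% and 6.41%) and 1 member in each tissue. Expressed in SD within groups, 24 of 27 differences lay within 1 SD in liver and 26 in each fat, and the medians were -0.0164 (liver), 0.012 (WAT) and 0.246 (BAT) beside -0.0885, 0.0144 and -0.0131 over all probe sets. CAAM means were above DW means for 13 genes in liver, 15 in WAT and 17 in BAT (44.5%, 51.1% and 49.2% of all probe sets).

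**Figure D3:**
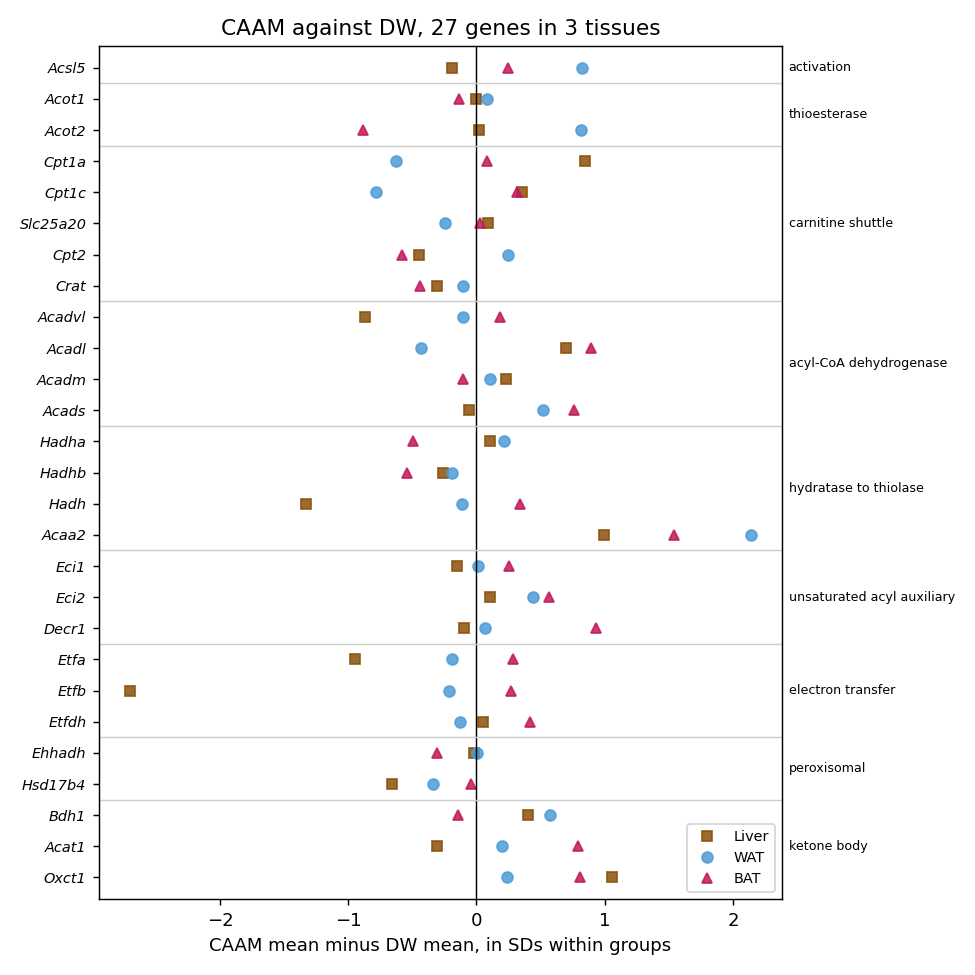
Difference between the means of 5 CAAM and 7 DW mice divided by the SD within groups (x axis) for 27 genes in liver (squares), WAT (circles) and BAT (triangles). Most points lie within 1 SD of 0; Etfb in liver lies at -2.7 and Acaa2 in WAT at 2.14.

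Etfb in liver was the member with the clearest separation. In SD units from the DW mean, DW mice 1 to 7 stood at -0.644, 0.249, 1.63, -1.11, -1.37, 1.39 and -0.148, and CAAM mice 2, 4, 5, 6 and 7 at -3, -3.6, -2.21, -1.89 and -2.8. Every CAAM liver was below every DW liver, as was the case for 0.275% of all probe sets. The difference was -5.23e-06 score units (SE 1.36e-06), with an unadjusted p of 0.00294 and an adjusted p of 0.636 by limma, and rank products made no call. Ranked on differences divided by the SD, rank products called Etfb lower. That ranking is not free of false calls: in a liver simulation it picked 214 of 44837 probe sets that had been left unchanged. The difference of Etfb stayed between -5.67e-06 and -4.7e-06 with any 1 mouse left out. With the scaling it changed in size, to -0.000113 with arrays centred and -0.000192 after quantile normalization. Liver array medians spanned 0.000345, far more than this difference. Centring also took Hadh in liver to -0.000111 and Acaa2 to -6.61e-05, so the sign kept by Etfb after centring is not particular to it. Etfa, the partner subunit, differed by -0.944 SD in liver (adjusted p 0.902 by limma): CAAM mice 2, 5, 6 and 7 stood at -1.14, -1.35, -1.31 and -1.96, below the lowest DW mouse at -0.681, and CAAM mouse 4 at 1.03. Etfb itself stood at -0.212 SD in WAT and 0.27 SD in BAT.

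The probe set representing Acaa2 was higher in CAAM mice in each tissue by its mean, without passing a test over all probe sets. In WAT, DW mice 1 to 7 stood at -1.09, 1.02, 0.597, -0.935, -0.529, 1.98 and -1.05 SD and the CAAM mice at 2.14, 2.31, 2.81, 1.27 and 2.18, so that 4 of 5 were above all DW mice. The difference was 0.00048 (SE 0.000128; unadjusted p 0.00349, adjusted p 1 by limma), and the estimated share of false positives in rank products was 0.0546. In BAT the DW mice stood at -1.2, 1.59, -0.558, -0.309, -0.418, 1.9 and -0.998 and the CAAM mice at 0.852, 1.63, 1.52, 2.15 and 1.56, a difference of 8.72e-05 (SE 3.22e-05; unadjusted p 0.0208, adjusted p 0.718 by limma). In liver the DW mice stood at -0.849, 1.45, -1.16, -1.25, -0.244, 1.97 and 0.0815 and the CAAM mice at 0.613, 1.33, 1.09, 1.08 and 0.868, a difference of 4.16e-05 (SE 2.37e-05; adjusted p 0.783 by limma).

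DW mice 2 and 6 had the highest Acaa2 score of the 7 in liver, WAT and BAT alike, and the other 5 stood between -1.25 and 0.597 SD. A pair of DW mice led in all 3 tissues in this way for 0.964% of all probe sets, and Acaa2 was the only such gene among the 27 representatives. The other 2 Acaa2 probe sets did not have DW mice 2 and 6 highest in all 3 tissues. Their CAAM means were above the DW means in WAT (0.973 and 1.03 SD) and in BAT (0.589 and 0.61 SD), as for the representative, but below them in liver (-1.47 and -0.938 SD). The representative carries the suffix _s_at, given by the maker to probe sets that match several transcripts. Since the 3 tissues come from the same mice, they are not independent observations of this gene.

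**Figure D4:**
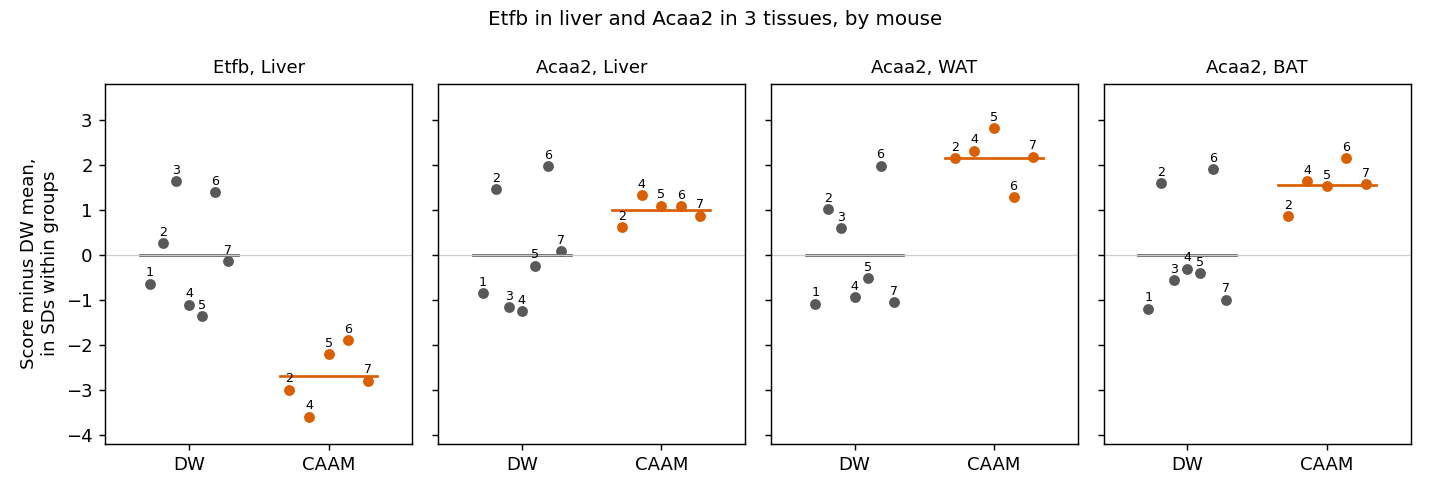
Score minus the DW mean in SDs within groups (y axis) for Etfb in liver and for the representative probe set of Acaa2 in liver, WAT and BAT; points are mice with their numbers (7 DW, 5 CAAM; equal numbers in DW and CAAM are different mice) and lines are group means. All CAAM mice lie below all DW mice for Etfb, and DW mice 2 and 6 are the highest DW mice for Acaa2 in each tissue.

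Acot1 was called higher in liver and lower in BAT by rank products, although its groups overlapped in both. In liver the DW mice ran from -1.83 to 2.05 SD (median -0.161) and the CAAM mice stood at -0.979, 0.122, 0.691, 0.169 and 0.00159. The difference was 1.13e-05 with an SE of 0.00752, and the estimated share of false positives was 0.0224 for higher and 0.0568 for lower. In BAT the CAAM mice stood at -1.11, -0.318, 0.0684, -1 and 1.68 SD against -1.06 to 1.21 in DW mice (median -0.176), with a difference of -0.000559 (SE 0.00233; adjusted p 0.99 by limma). Rank products ranks differences in score units over all probe sets, and the SD of Acot1 over DW livers, 0.0158, was the highest of the 27. The sign depended on single mice: the difference lay between -0.00403 and 0.00454 in liver and between -0.00243 and 0.000443 in BAT with 1 mouse left out. Acot1 was not called in liver without CAAM mouse 7, nor in BAT without CAAM mouse 2 or 6 or without DW mouse 3, 6 or 7, and with differences divided by the SD it was called in neither tissue.

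The remaining genes with the lowest p were closer to the spread between mice. Hadh in liver differed by -3.73e-06 (SE 1.78e-06; adjusted p 0.745 by limma), with all 5 CAAM mice below the DW median, 2 of them below all DW mice. After quantile normalization this difference of Hadh was 0. Oxct1 differed by 0.000254 in liver (SE 0.000136, adjusted p 0.77 by limma) and by 9.42e-05 in BAT (SE 6.6e-05, adjusted p 0.884 by limma). In liver, CAAM mouse 5 stood at 3.05 SD against -1.21 to 0.963 in DW mice. The liver difference was 1.06 SD for the representative of Oxct1, and 0.205, 0.189 and 0.573 SD for its other probe sets. In WAT, Acsl5 differed by 7.79e-05 (SE 5.43e-05), Acot2 by 2.4e-05 (SE 1.68e-05) and Cpt1c by -1.93e-05 (SE 1.41e-05), all with an adjusted p of 1. In BAT, Acot2 differed by -9.83e-05 (SE 6.31e-05; adjusted p 0.868) and Acadl by 2.08e-06 (SE 1.42e-06; adjusted p 0.879). Among probe sets that did not represent their gene, rank products called 1 of Cpt1a higher and 1 of Hsd17b4 lower in liver and 1 of Hadhb lower in BAT, with differences of 0.00166 (SE 0.00355), 5.79e-05 (SE 0.00267) and -0.00054 (SE 0.00092). For Hsd17b4 the sign of the mean difference was thus opposite to the call.

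Whether the effect of CAAM differed between tissues was tested with limma on differences within mice. No member and no probe set was called for any pair of tissues, with 2507, 2425 and 2787 probe sets at an unadjusted p under 0.05. With scores as deposited, the member with the lowest p by limma was Acaa2 in each pair. Its adjusted p was 0.792 for BAT against WAT, 0.849 for liver against WAT and 0.759 for liver against BAT. Its SD over DW mice was 0.000271 in WAT, 7e-05 in BAT and 5.32e-05 in liver, so these differences set unlike scales against each other. With scores divided by the SD within groups, 28, 148 and 123 probe sets were called (0.0622%, 0.329% and 0.273%) but no member. The member with the lowest p was then Acot2 for BAT against WAT and Etfb for both pairs with liver, and no longer Acaa2. Etfb came nearest, with a liver minus BAT effect of -2.97 SD (SE 0.781; adjusted p 0.0554 by limma).

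Single mice stood apart at many members together. In WAT, CAAM mouse 6 had the lowest score of the 12 mice at 18 of the 27 genes, where this array was lowest for 21.4% of all probe sets. The genes were Cpt1a, Slc25a20, Cpt2, Crat, Acadvl, Acadl, Acadm, Hadha, Hadhb, Hadh, Eci1, Decr1, Etfa, Etfb, Etfdh, Hsd17b4, Acat1 and Oxct1, at -2.83 to -1.41 SD. Its epididymis markers summed to 47.4, above the other CAAM mice (31.9 to 36.5), through Lcn5, Spint4 and Serpina1f (11.3, 12.1 and 11.2). DW mice 1 and 2, with sums of 58.2 and 53.8, were lowest at 3 genes and 1 gene. Their sums were high through other markers, Lcn8 (19.8 and 18.4) and Lcn9 (17.2 and 15.8), with Spint4 at 6.41 and 6.38. The sums of these mice therefore cannot be set against that of CAAM mouse 6. CAAM mouse 2, unlike CAAM mouse 6, was the highest of the 12 in WAT at 11 genes (16.3% of all probe sets), with a median over the members of 1.1 SD.

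In BAT, DW mouse 1 was lowest at 12 genes (8.42% of all probe sets), among them Slc25a20, Cpt2, Acadl, Acadm, Hadha and Hadhb, and CAAM mouse 2 at 7 (10.4%), among them Acadvl, Etfa, Etfb and Etfdh. Their muscle marker sums, 108 and 104, were the highest in BAT, while DW mouse 3, with 99.5, was lowest at none and had a median of 0.313 SD. In liver, CAAM mouse 2 was lowest at 11 genes (7.31%), including Slc25a20, Cpt2, Acadvl, Acadl, Hadhb, Eci1, Decr1 and Etfdh, at -2.43 to -1.11 SD. The part of the marker genes in these values was not tested. In WAT, 4 arrays were set aside for genes of the male tract. These were DW mice 1 and 2, the highest in Lcn8 and Lcn9, and CAAM mice 6 and 7, at 12.1 and 8.22 in Spint4 and 11.2 and 7.52 in Serpina1f. Without them, Acot1 was called by rank products in WAT. DW mice 3 to 7 still stood above every CAAM mouse in Lcn8 (9.32 to 10.9 against 6.36 to 6.71), so the remaining groups still differed in such markers. Without the 4 BAT arrays of the highest muscle sums (DW mice 1, 3 and 7, CAAM mouse 2), no member was called in BAT.

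**Figure D5:**
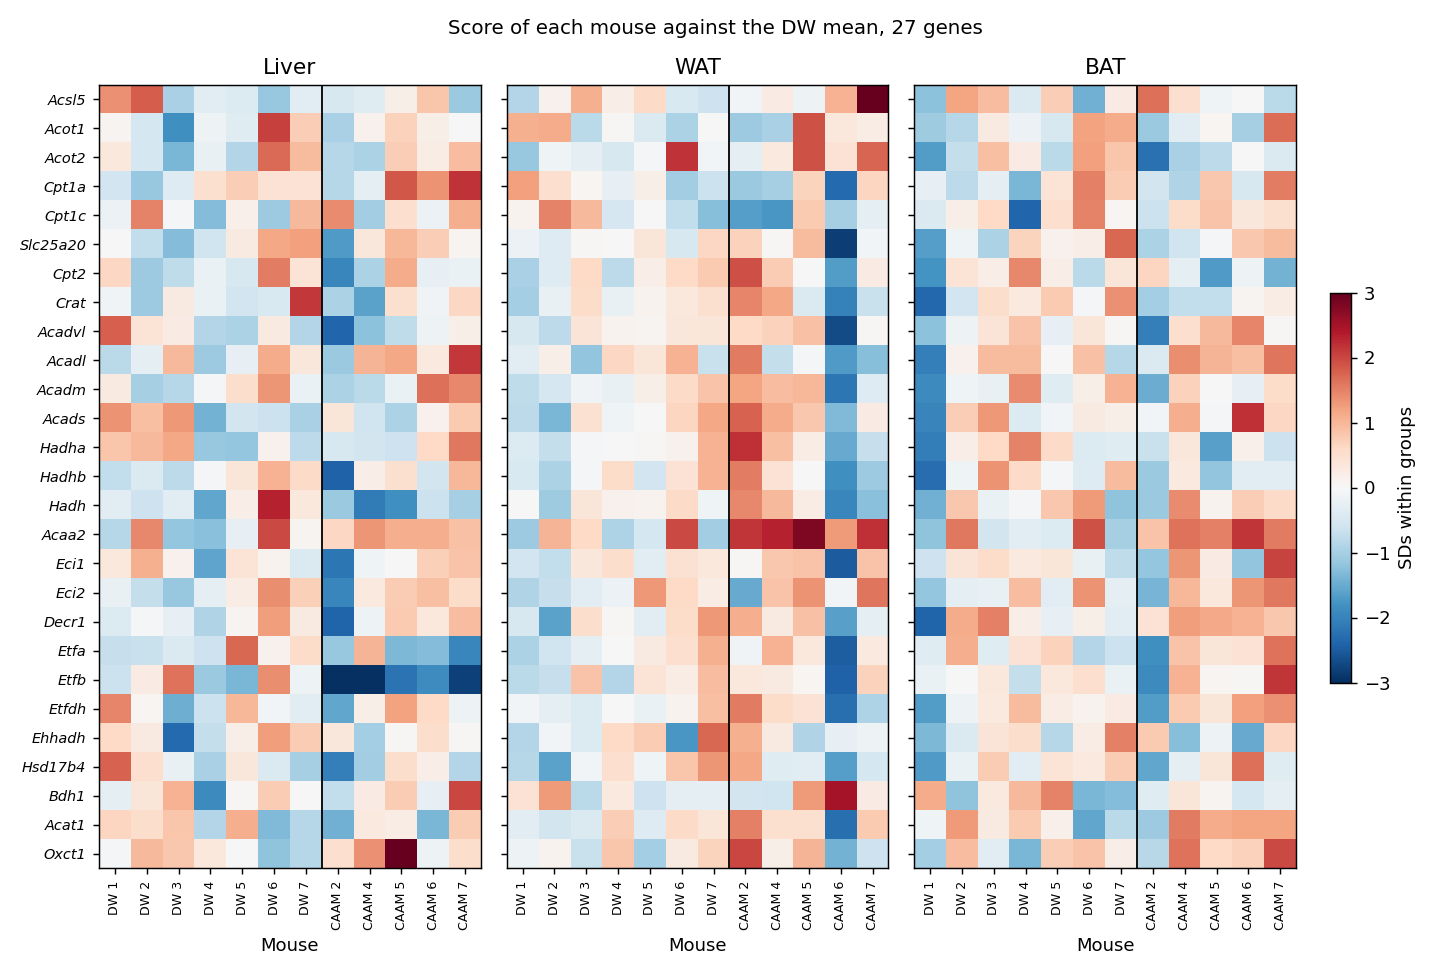
Score of each mouse minus the DW mean, in SDs within groups (colour, limited to 3 SD either way), for 27 genes (rows) in 7 DW and 5 CAAM mice (columns, divided by the black line) in liver, WAT and BAT. Blue columns mark CAAM mouse 6 in WAT, DW mouse 1 in BAT and CAAM mouse 2 in liver, each lowest at 18, 12 and 11 genes.

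Of 44 other genes of the pathway, 40 were measured. BAT exceeded WAT by at least 1 unit in 9 of them and was lower in 2 (1.77% and 4.9% of all probe sets). Liver exceeded WAT in 15 and was lower in 1 (3.96% and 8.34%), and exceeded BAT in 11 and was lower in 7 (5.02% and 4.6%). Median differences were 0.371, 0.614 and 0.473, beside -0.0935, -0.0513 and 0.0195 over all probe sets. Their highest level was in liver for 24, in BAT for 14 and in WAT for 2 (34.9%, 21.6% and 43.5% of all probe sets). For CAAM against DW, limma called none. Rank products called 4 of the 40 higher and 4 lower in liver (1.62% and 1.18% of all probe sets). In WAT it called 3 higher and 1 lower (0.793% and 1.98%), and in BAT 3 higher and 2 lower (1.19% and 2.05%). By rank products, Acot4 and Abcd2, a thioesterase and a transporter of the peroxisome, were called higher in liver (differences 0.000342, SE 0.00398, and 0.0134, SE 0.00455), and Bdh2 and Acacb lower (-0.000447, SE 0.000281, and -0.000179, SE 0.000149). Acot3 and the hormone gene Fgf21 were called in both directions in liver, with differences of -0.0321 (SE 0.142) and 0.0116 (SE 0.00791). In WAT, Slc22a5, the carnitine importer (0.0044, SE 0.00278), Acacb, which makes the malonyl-CoA that inhibits carnitine palmitoyltransferase (0.00188, SE 0.00156), and Slc16a6 (0.00191, SE 0.000619) were called higher. Slc16a1, a carrier of lactate and ketone bodies, was called lower in WAT (-0.00122, SE 0.002) and in BAT (-0.000588, SE 0.000479). In BAT, Decr2 (0.000511, SE 0.000229), Pecr (0.000163, SE 4.5e-05) and the coactivator gene Ppargc1a (0.00121, SE 0.00213) were called higher and Abcd2 lower (-0.00128, SE 0.000661). Of these differences, only those of Abcd2 in liver, Slc16a6 in WAT and Decr2 and Pecr in BAT were above 2 SE.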

How the data were processed

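The samples were hybridised to whole-genome Affymetrix mouse arrays. The authors summarised the probes of each probe set by the distribution free weighted method in Bioconductor (R 2.7.2 in the submitters' processing notes) and deposited the resulting scores. The files give no depth, and the number of arrays limits the precision. Of 45101 probe sets, 64 controls were left out. Gene symbols came from the platform annotation, under which 34945 probe sets carried 1 symbol, 932 several (used for no gene) and 9160 none.

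Groups were taken from the sample titles. CAAM was compared with DW within each tissue, with no covariates, by rank products over all 35 pairs of arrays (python 3.11.15, numpy 2.4.6; 100 permutations, 20 for alternatives; called where the estimated false positive share was under 0.05, per direction) and by limma (version 3.58.1, R 4.3.3; lmFit, then eBayes, with Benjamini-Hochberg adjustment over all 45037 probe sets, two-sided). Tissues were compared by limma in DW mice, called at an adjusted p under 0.05 and a difference of at least 1 score unit, and CAAM effects between tissues on differences within mice. The tests had been planned for log2-like values and were kept. For display, scores were centred on the DW mean and divided by the pooled SD within groups. The scripts were tested on simulated data.

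The rule for members uses no measured value, but the members, gene lists and tests were chosen with earlier results of these data known. In tissues, all members are named. For CAAM, members called by either test, those with an unadjusted limma p under 0.05 and in any case the 4 with the lowest p are named per tissue, with the other pathway genes that were called. Members named for a call under an alternative only were chosen after their values were seen.

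Equal numbers under DW and CAAM are different mice. Arrays of 1 mouse in different tissues are paired by title, and their deviations from the group means had rank correlations of -0.0276 to 0.316 between BAT and WAT, -0.019 to 0.119 between liver and WAT and 0.0542 to 0.184 between liver and BAT. Alternatives were quantile normalization, centring, leaving out dim probe sets, replicate blocks, SD-scaled ranks, other choices of probe set, a trended robust prior, CAAM mice, a limit of 2 units, and leaving out each mouse or the arrays with marker genes of other tissues. Figures were drawn with matplotlib 3.10.9.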

Additional observations from a re-analysis of the deposited data

Results flagged for a closer look

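Within each tissue and treatment, the member scores were searched for a mouse whose gap to its nearest neighbour took an unusually large share of the group's range (above the critical value of Dixon's test). Of 162 groups of values 12 had such a mouse, which is not far above the share of about 5% that chance gives. Single entries below may therefore be chance, and the members within a tissue are not independent of each other. In WAT, CAAM mouse 6 stood low at 5 genes, with shares of 0.728 for Slc25a20, 0.765 for Acadvl, 0.749 for Eci1, 0.798 for Etfb and 0.726 for Acat1. In BAT, CAAM mouse 2 stood low at Acat1 (0.831) and DW mouse 1 low at Etfdh (0.575), and in liver CAAM mouse 2 stood low at Eci2 (0.791). DW mouse 6 stood high at Acot2 in WAT (0.672), DW mouse 7 high at Etfdh in WAT (0.613) and at Crat in liver (0.577), and CAAM mouse 4 high at Etfa in liver (0.726). No effect of CAAM on a member differed between tissues at an adjusted p under 0.05 by limma.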

How the results depend on the processing

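Leaving out a DW mouse changed no tissue call, and the mouse as a replicate block gave 20, 13 and 18 calls as before. Quantile normalization added calls for Acot2 between BAT and WAT (1.07) and for Acads, Hadh and Etfa between liver and BAT (-1.04, -1.06 and -1.02), and ended that of Acat1 between liver and WAT (0.789). With the mean of all probe sets 7 calls were lost, those of Cpt2 and Hadh between BAT and WAT, of Cpt1a, Etfdh and Acat1 between liver and WAT, and of Cpt2 and Etfdh between liver and BAT. With a limit of 2 score units, 9, 7 and 5 members were called for BAT against WAT, liver against WAT and liver against BAT. Differences under 1 unit reversed after quantile normalization for Oxct1 between BAT and WAT (-0.114), Decr1 between liver and WAT (-0.218) and Acsl5 between liver and BAT (-0.000214). With the mean of all probe sets of a gene they reversed for Oxct1 between BAT and WAT (-0.763), Hadh and Hsd17b4 between liver and WAT (-0.0418 and -0.555) and Hsd17b4 between liver and BAT (-0.563). The cause was not tested.

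Calls for CAAM were few under every setting, and which gene was called changed. limma called 0 members in each tissue under all its alternatives, and so 0 in place of the rank products calls in liver and BAT. In liver, rank products called 2 members, Acot1 and Cpt1a, with arrays centred and with the replicate block of equal numbers, and 0 to 2 with 1 mouse left out (0 without CAAM mouse 7). Cpt1a joined without CAAM mouse 2 or 4 or without DW mouse 4, 5, 6 or 7. In WAT the count was 1 without the 4 arrays set aside for genes of the male tract, and 0 to 1 with 1 mouse left out. Acot1 was called without CAAM mouse 5, 6 or 7, and Acaa2 without DW mouse 2 or 6. With SD-scaled ranks the call in liver passed from Acot1 to Etfb. In BAT the count was 0 after quantile normalization, with SD-scaled ranks, with the replicate block and without the arrays with muscle genes, and 0 to 2 with 1 mouse left out. Ehhadh was called there without CAAM mouse 2 or 7 or without DW mouse 1.

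The difference of Acot1 in liver was -0.000194 after quantile normalization, -9.65e-05 with arrays centred, -0.00464 with the replicate block, and -0.00403 to 0.00454 with 1 mouse left out. In BAT it was 0.000772 without the arrays with muscle genes and -0.00243 to 0.000443 with 1 mouse left out. Differences that were not called also reversed. Quantile normalization gave -4.05e-06 for Oxct1 in liver, -0.000339 and 5.86e-05 for Acot2 and Cpt1c in WAT, and 0.000623 for Acot2 in BAT. Centring gave -6.61e-05 for Acaa2 in liver, 0.000297 for Cpt1c in WAT and 0.000274 for Acot2 in BAT. Centring subtracts the median of each array, so it moves the differences of all probe sets in a tissue by the same amount. Array medians spanned 0.000345 in liver, 0.00596 in WAT and 0.00143 in BAT, so these reversals are not particular to the genes named. Without the male tract arrays Acsl5 in WAT was -1.4e-05. Deviations of DW and CAAM mice of equal number had rank correlations of -0.158 to 0.165 in liver, -0.213 to 0.000611 in WAT and -0.0895 to 0.0625 in BAT, and 1 of 15 CAAM arrays correlated best with its own number, so the numbers pair no mice.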
